A study of Mus musculus with 8 samples.

Results

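The heat shock proteins and their co-chaperones were examined as a family of 82 genes, whose transcripts make up 118 of the 34535 isoforms in the table. Members were taken by gene name: the Hsp90, Hsp70, Hsp110, small heat shock and chaperonin genes (Hsp90, Hspa, Hsph, Hspb, Hspd and Hspe), the DNAJ genes of the A, B and C groups, the heat shock factors Hsf1 and Hsf2, and Bag1 to Bag6. The cells were adipocyte precursors, mesenchymal cells that can form fat cells, sorted by flow cytometry from the dermis of male C57/Bl6 mice aged 7 weeks. RNA of 6 samples of nonwounded dorsal skin was compared with that of 2 samples of the wound bed at day 5 after wounding, and no other treatment or allele is named. The sort markers are not given in the labels, nor is it said whether samples came from separate animals, so that the p-values may measure technical spread only. The table holds a single FPKM per group (fragments scaled to transcript length and to sequencing depth), as the authors pooled it, and a Cuffdiff p-value per isoform, so no SD, no value per sample and no depth can be given.

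Heat shock proteins are molecular chaperones, which hold unfolded protein chains and help them fold, assemble or be destroyed. Hsp70 binds and releases short stretches of its clients with each round of ATP hydrolysis. DNAJ proteins, also called Hsp40, deliver the clients and start the hydrolysis, while Hsp110 and BAG proteins open Hsp70 so that it can release ADP. Hsp90 takes over clients at a later step, small heat shock proteins keep aggregating chains soluble, and the Hsp60 chaperonin with its Hsp10 lid folds proteins inside mitochondria. Under proteotoxic stress the transcription factor HSF1 binds heat shock elements, inverted repeats of the letters GAA, and raises a subset of these genes.

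The upstream sequences of 4 inducible members that hold this repeat are shown, of which Hspb1 was called higher in the wound bed and the others were not called. Each is the stretch of 250 bases that ends just before the RefSeq start in GRCm38.p6, 5′ to 3′ on the strand of the gene, with each match to GAANNTTC, or to its longer form with an added repeat, in capitals. Hspe1 encodes Hsp10 and lies head to head with Hspd1, which encodes Hsp60, so that its stretch is largely also the promoter of Hspd1 read from the other side. Hspa1a and Hspa1b encode the stress-inducible Hsp70, and their stretches differ at 3 of 250 bases.
Hspb1, chr5:135887669-135887918, plus strand: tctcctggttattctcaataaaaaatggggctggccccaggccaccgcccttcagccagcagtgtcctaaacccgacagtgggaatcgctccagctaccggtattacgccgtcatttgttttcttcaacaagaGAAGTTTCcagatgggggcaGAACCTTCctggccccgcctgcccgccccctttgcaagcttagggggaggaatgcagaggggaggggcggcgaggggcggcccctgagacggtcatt
Hspe1, chr1:55087898-55088147, plus strand: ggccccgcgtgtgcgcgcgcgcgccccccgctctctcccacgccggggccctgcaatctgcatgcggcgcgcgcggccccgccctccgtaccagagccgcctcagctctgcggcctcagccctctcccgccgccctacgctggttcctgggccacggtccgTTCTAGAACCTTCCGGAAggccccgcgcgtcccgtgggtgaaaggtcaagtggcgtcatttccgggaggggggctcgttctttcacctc
Hspa1a, chr17:34972157-34972406, minus strand: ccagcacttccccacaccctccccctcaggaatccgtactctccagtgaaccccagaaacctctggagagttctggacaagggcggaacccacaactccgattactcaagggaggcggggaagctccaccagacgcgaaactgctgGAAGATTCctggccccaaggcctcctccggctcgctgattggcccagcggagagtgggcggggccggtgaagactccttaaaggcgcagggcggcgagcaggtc
Hspa1b, chr17:34959239-34959488, minus strand: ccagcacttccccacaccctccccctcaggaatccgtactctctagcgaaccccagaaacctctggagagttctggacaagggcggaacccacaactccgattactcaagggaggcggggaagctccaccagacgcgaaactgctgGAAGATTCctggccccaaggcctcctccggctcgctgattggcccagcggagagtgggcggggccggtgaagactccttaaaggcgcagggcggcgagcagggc

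The letters GAANNTTC, which read the same on both strands, were searched in 300-base windows (250 bases before to 50 after the start). They occurred in at least 1 window of 15 of the 66 members with a promoter in the table, and in 9.04% of all 27025 genes. Among members with a promoter in the table that were called higher in the wound bed they occurred in 5 of 9 (Bag3, Dnaja1, Hspb1, Hspb8 and Hsph1), among those called lower in 1 of 8 and among those not called in 8 of 46. Within the 250 upstream bases alone the count among the higher members was 2 of 9, against 7.73% of all genes. The longer form adds GAA after 2 further letters, or TTC in the same way before the 8 letters, and so always contains the shorter one. It occurred in the 300-base windows of Dnajb6, Hspd1, Hspe1 and Hsph1, and in 0.662% of all genes. The CCAAT box (ATTGG on the other strand) was present in 26 of the 66 members and in 41.1% of all genes. These counts describe letters and carry no test.

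Of the 118 isoforms 101 were tested, in 78 genes. Dnajc6, Dnajc22, Hspb3 and Hspb7 had no tested isoform and no isoform above an FPKM of 0.642. At a Benjamini-Hochberg adjusted p under 0.05, taken over all 17775 tested isoforms from the authors' deposited table, 20 of the 101 were called. That is 19.8% of the tested member isoforms, against 12.9% of all tested isoforms. The wound bed was higher for 11 of them (5.66% of all isoforms were called higher) and lower for 9 (7.25% of all were called lower). At an unadjusted p under 0.05 there were 40 of the 101 member isoforms, against 27.3% of all tested isoforms.

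With each gene represented by its major isoform, the tested isoform of highest summed FPKM, 11 genes were called higher, 8 lower and 59 neither. The background for genes is 15.7% called, 7.01% higher and 8.67% lower. The higher genes were Bag3, Dnaja1, Dnajb1, Dnajb4, Dnajb9, Hsp90aa1, Hspa4, Hspa9, Hspb1, Hspb8 and Hsph1. The lower ones were Bag5, Dnajb8, Dnajc5g, Dnajc7, Dnajc14, Hspa12b, Hspa1l and Hspa4l. In the log2 fold changes that follow, the wound bed stands over the nonwounded value. Their median over the 73 members that reached 1 FPKM in either group and were above 0 in both was 0.00030, against -0.13 over all 12457 such genes, and 37 of the 73 lay above 0.

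**Figure D1:**
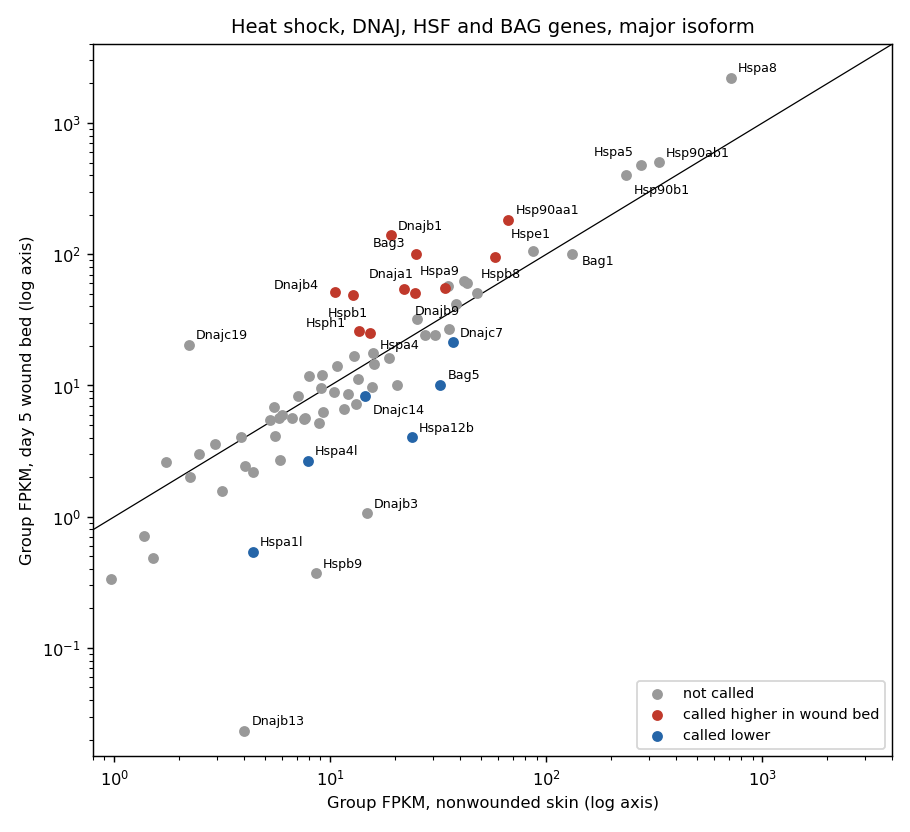
Group FPKM of the major isoform on log axes, with the day 5 wound bed upward and nonwounded skin across, 1 point per member gene with both values above 0, coloured by call, with the line of equal values. Dnajb1 (140 against 19.1) and Bag3 (101 against 24.9) lie above the line, Hspa12b (4.02 against 23.7) and Bag5 (10.1 against 32.2) below it, and Hspa8, at the upper end, is not called.

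The abundant chaperones stood higher in the wound bed as a sum. All member isoforms together held 5509 FPKM in the wound bed and 2970 without wounding, which is 1.19% and 0.614% of the FPKM over all usable isoforms. Hspa8, which encodes the constitutive cytosolic Hsp70, made up 40.2% and 24.0% of these sums. Its FPKM was 2212 against 713, a log2 fold change of 1.63, and it was not called (adjusted p = 0.0673, from the authors' deposited table). Without Hspa8 the sums were 3297 and 2256.

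**Figure D2:**
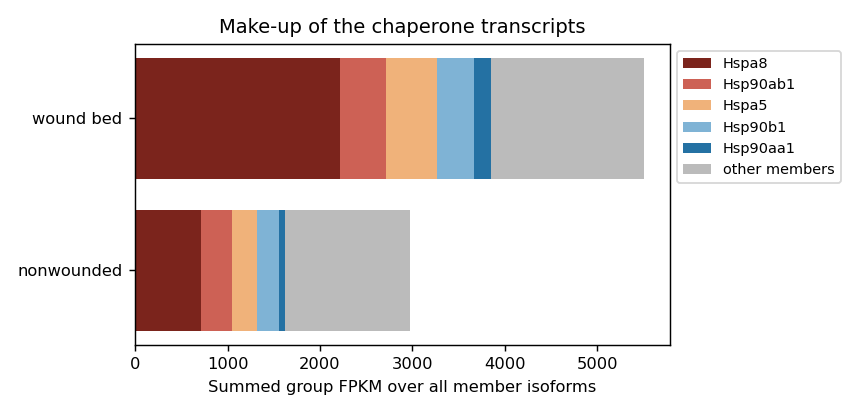
Summed group FPKM over all member isoforms (horizontal axis, from 0) in each group, split into the 5 most abundant genes and the other members. Hspa8 takes 2212 of 5509 in the wound bed and 713 of 2970 in nonwounded skin.

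Stress-inducible chaperone genes made up 8 of the 11 genes called higher. The set holds 14 genes known to respond to heat shock or to be part of that response: Bag3, Dnaja1, Dnajb1, Dnajb4, Hsp90aa1, Hspa1a, Hspa1b, Hspa4l, Hspb1, Hspb8, Hspd1, Hspe1, Hsph1 and Hspa8, which is constitutive but also listed here. The set was chosen with earlier results of these data known, so its counts carry no test. Of the 14 genes 8 were called higher, 1 lower and 5 neither, where 7.01% of all genes were called higher and 8.67% lower. Their median log2 fold change was 1.12 for the major isoforms and 0.83 for sums over isoforms. By major isoforms the median was -0.22 over the other 59 members with a fold change and -0.13 over all genes. Dnajb1 encodes the main inducible partner of cytosolic Hsp70, and its major isoform had 140 FPKM in wounds against 19.1, or 2.88 on the log2 scale. Dnajb4, a close relative of Dnajb1, stood at 51.1 against 10.5 (2.29 on the log2 scale). The sums over their isoforms gave 2.55 and 2.14.

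Bag3, a co-chaperone that links Hsp70 and small heat shock proteins to selective autophagy, stood at an FPKM of 101 against 24.9, a log2 fold change of 2.02. Hspb1 (Hsp25 in the mouse), a small heat shock protein that binds actin, stood at 48.9 against 12.7 (1.94). Hspb8, the partner of Bag3 in that pathway, rose less, from 58.0 to 96.0 (0.73). The adjusted p was 0.000882 for Dnajb1, Dnajb4 and Bag3, which is the smallest the authors' deposited table allows, 0.00239 for Hspb1 and 0.0341 for Hspb8.

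Hsp90aa1, the inducible cytosolic Hsp90, stood at 183 against 66.4, a log2 fold change of 1.47. Hsph1, an Hsp110 exchange factor, stood at 26.0 against 13.6 (0.93). Dnaja1, a farnesylated partner of cytosolic Hsp70, stood at 54.7 against 22.0 for its major isoform (1.31), while the sum of its isoforms gave 0.67. Hspa4l, an Hsp110 gene, was the member of the set that fell, from 7.84 to 2.66 (-1.56). Adjusted from the authors' deposited table, the p was 0.000882 for Hsp90aa1 and Hspa4l and 0.00874 for Hsph1.

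The classic inducible Hsp70 genes were not called. Hspa1a stood at a group FPKM of 57.4 against 35.2, a log2 fold change of 0.71, and Hspa1b at 63.1 against 41.6 (0.60). The adjusted p from the authors' deposited table was 0.0566 and 0.131. Their coding sequences, 1923 and 1926 bases in the GENCODE annotation of GRCm38, are 99.4% identical, so that the division of reads between them is uncertain. Together the genes stood at 120 and 76.8. Exons of Hspa1a also share 564 bases, 19.0% of their length, with Gm20481 on the opposite strand. Hspd1 and Hspe1, the mitochondrial chaperonin pair with the shared promoter shown above, stood at 60.6 against 42.7 and 106 against 86.5 (0.50 and 0.29) without a call. RefSeq lists 5 pseudogenes or related copies named after Hspd1 and 7 after Hspe1, which can take or give reads.

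**Figure D3:**
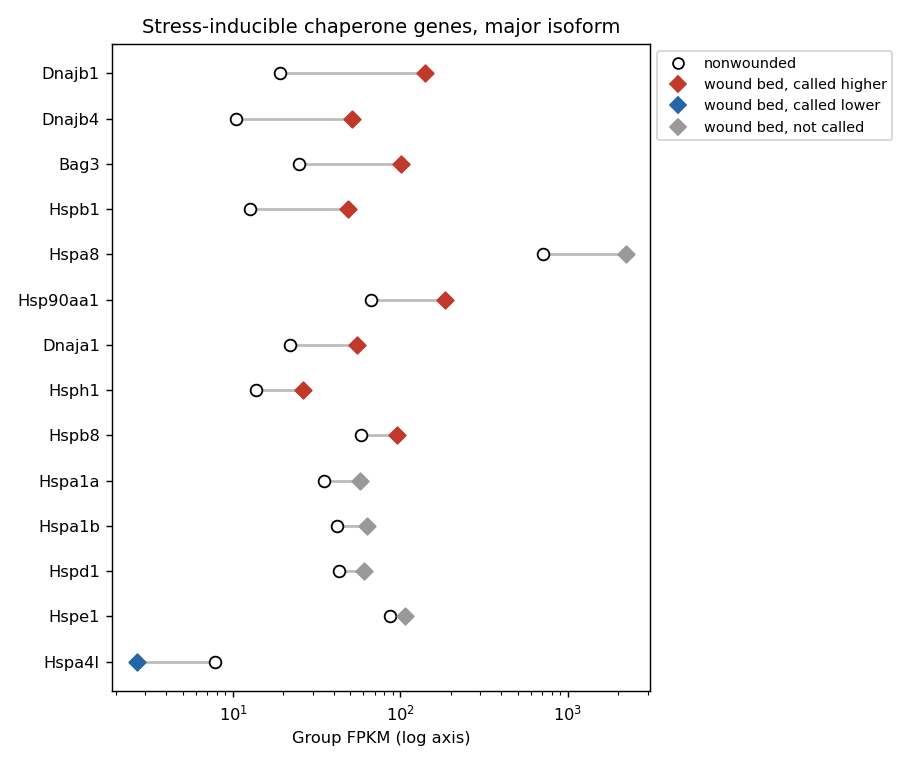
Group FPKM (horizontal log axis) of the major isoform of the 14 stress-inducible genes in nonwounded skin (open circles) and the wound bed (diamonds, coloured red for higher calls, blue for lower and grey for none), ordered by log2 fold change. Dnajb1 moves from 19.1 to 140 at the top, and Hspa4l from 7.84 to 2.66 at the bottom is the gene that lies lower in the wound bed.

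The genes of the heat shock factors were not called. Hsf1, the master regulator of the response, had 8.64 FPKM in wounds against 12.1 (-0.48), and Hsf2, a relative active in development, at 6.23 against 9.22 (-0.56). The adjusted p from the authors' deposited table was 0.366 and 0.206.

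Other marker genes moved between the same columns as the inducible set. Of 7 immediate early genes, which tissue dissociation is also known to raise, 6 were called higher in the wound bed, with a summed group FPKM of 4036 against 939. Of 8 listed macrophage and monocyte markers 7 were in the table, of which 5 were called higher and 0 lower, with a summed FPKM of 689 against 220, and Ptprc stood at 4.13 against 0.453. The 5 adipocyte precursor markers were present in both columns, with a summed FPKM of 2553 in wounds against 4018. Cd24a was called lower among them (9.38 against 24.9), while Pdgfra (81.2 against 78.8), Cd34 (476 against 739), Ly6a (1539 against 2149) and Itgb1 (197 against 117) were not called.

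Markers of further cell types also differed in summed FPKM. The 4 keratinocyte genes stood at 30.9 against 13.6, with 2 called higher, and the 3 neutrophil genes in the table at 102 against 2.30, with 0 called. Lower sums in the wound bed were found for 4 erythroid genes in the table (135 against 2712, 3 called lower), 4 mast cell genes (5.17 against 47.5, 3 called lower) and 4 genes of mature adipocytes (3.15 against 86.2, 1 called lower). The 4 smooth muscle and pericyte genes stood at 2.93 against 3.96, with 0 of 2 tested called. The part of other cells and of dissociation in the chaperone differences was not tested, and in bulk RNA fewer cells of a type cannot be told apart from less RNA per cell.

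Among the Hsp90 genes all 3 stood higher in the wound bed and Hsp90aa1 alone was called. Hsp90ab1, the constitutive cytosolic form and the most abundant of the 3, stood at a group FPKM of 504 against 331 (0.60). Hsp90b1 (Grp94), the form of the endoplasmic reticulum, stood at 398 against 234 (0.77), and the adjusted p of the 2 from the authors' deposited table was 0.209 and 0.136. Its exons share 415 bases, 14.7% of their length, with a pseudogene on the opposite strand.

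The Hsp70 class held 11 tested genes, of which Hspa9 was called higher and Hspa12b and Hspa1l lower, with a median log2 fold change of 0.40. Among all genes 7.01% were called higher and 8.67% lower. Hspa1l is given below with the members best known from the testis. Hspa9 (mortalin), the mitochondrial Hsp70, rose from 33.8 to 55.3 (0.71, adjusted p = 0.0424, from the authors' deposited table). Hspa5 (BiP), the Hsp70 of the endoplasmic reticulum, stood at 478 against 273 for its major isoform (0.81) and at 76.5 against 5.34 for a minor one (3.84), and neither isoform was called. Hspa13, a microsomal Hsp70, and Hspa14, which acts at the ribosome, stood at 0.40 and -0.12 on the log2 scale. Hspa12a, a distant relative, stood at 0.29.

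Hspa12b, a distant Hsp70 relative known from endothelial cells, fell from 23.7 to 4.02, a log2 fold change of -2.56 with an adjusted p of 0.000882 from the authors' deposited table. The 3 endothelial markers Pecam1, Cdh5 and Kdr were not called and stood at 1.06, 0.58 and 0.11. The bundle of reads to which the table assigns Hspa12b runs from 131127412 to 131604824 on chromosome 2, well beyond the gene, which ends at 131145985 in RefSeq. Such a stretch was over 2 times as long as the RefSeq gene for 7 members: Hspa12b, Dnaja1, Dnajb3, Dnajb7, Dnajc19, Dnajc30 and Hspb2. The Hsp110 class had all of its 3 genes called, where 15.7% of all genes were called. Hspa4 was higher (25.1 against 15.3, 0.71 on the log2 scale). Hsph1 was higher and Hspa4l lower, as given above.

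Of the small heat shock genes 5 were tested. Besides Hspb1 and Hspb8, called higher, Hspb6 (Hsp20), a muscle-enriched member, stood at -0.17 on the log2 scale without a call. Hspb2, another muscle form, had an FPKM of 2.73 against 5.87 and was not called either. Hspb2 shares 30.2% of its exon bases with Cryab, the alpha-B crystallin gene on the opposite strand, whose major isoform fell by 1.76 on the log2 scale while its isoform sum gave -0.39. The 7 muscle markers summed to 97.9 FPKM without wounding and to 7.60 in the wound bed, and Mylpf was the 1 called, as lower. The part of muscle RNA was not tested. Hspb11 (a ciliary transport protein), Hspbap1 and Hspbp1 resemble the small heat shock genes by name only and were not called.

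**Figure D4:**
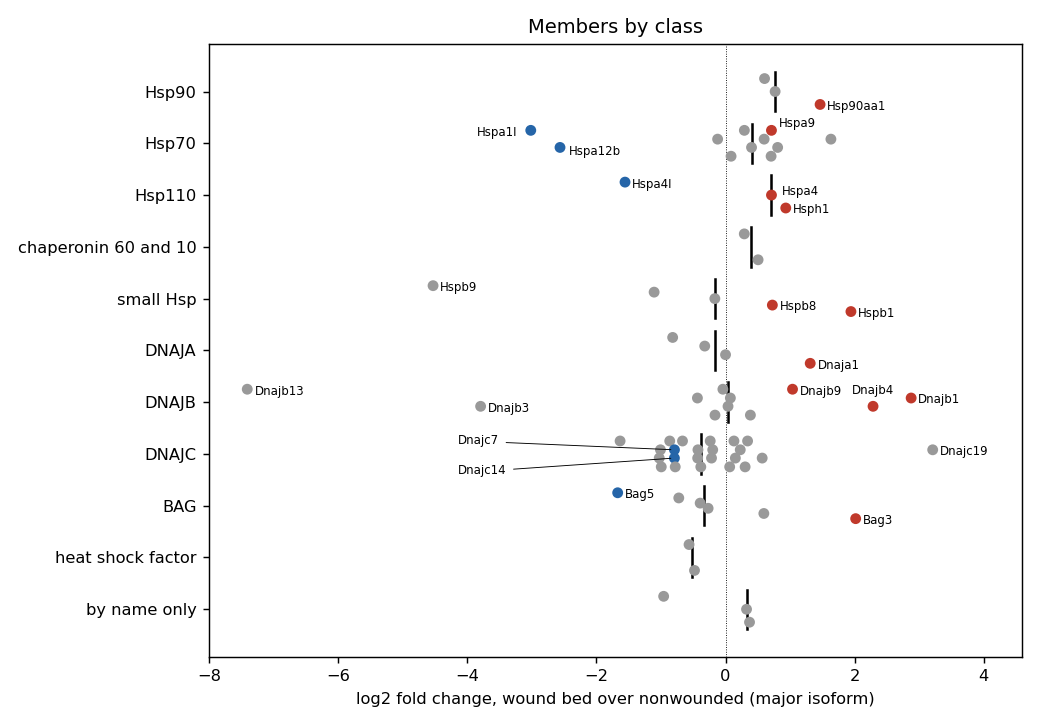
Log2 fold change of the major isoform (wound bed over nonwounded, horizontal axis) for members that reached 1 FPKM in either group and were above 0 in both. Each point is a gene, rows are classes, bars are class medians, and called genes are red (higher) or blue (lower). The medians run from -0.52 for the heat shock factors to 0.77 for Hsp90, and Dnajc7 and Dnajc14, the DNAJC genes called among those plotted, are lower.

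Most DNAJ co-chaperones were not called, which holds for all genes too, of which 15.7% were called in either direction. Of 4 DNAJA genes Dnaja1 was called higher, and the cytosolic Dnaja2 (-0.32), the mitochondrial Dnaja3 (-0.82) and Dnaja4 (0.00030) were not called. Of 13 DNAJB genes 3 were called higher and 1 lower. Besides Dnajb1 and Dnajb4 the higher one was Dnajb9 (ERdj4), a BiP partner of the endoplasmic reticulum induced by the unfolded protein response, at 50.7 against 24.7 (1.04, adjusted p = 0.00239, from the authors' deposited table). Dnajb11 (ERdj3), in the same compartment, stood at 50.5 against 47.9 and Dnajb6, a suppressor of aggregation, at 24.4 against 27.3, both without a call.

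DNAJC genes, which share the J domain but otherwise differ in structure and act at particular sites in the cell, had 0 of 26 tested genes called higher and 3 lower by the adjusted Cuffdiff p-values, and 1 higher and 7 lower at an unadjusted p under 0.05. Over all genes 7.01% were called higher and 8.67% lower by the adjusted p-values. At the unadjusted threshold 13% of all genes were higher and 18.3% lower. Dnajc5g, among the DNAJC genes called lower, is given below with the members best known from the testis. The median log2 fold change of the DNAJC genes was -0.38, with 15 of 23 below 0, against 56.7% of all genes below 0. Dnajc7 (Tpr2), which passes clients between Hsp70 and Hsp90, fell from 36.9 to 21.3 (-0.79). Dnajc14, a membrane protein of the endoplasmic reticulum, fell from 14.5 to 8.37 (-0.79), and its exons share 1114 bases with Ormdl2 on the opposite strand. The adjusted p of the pair from the authors' deposited table was 0.0242 and 0.0365.

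Other DNAJC genes were not called. Dnajc3 (p58IPK), a lumenal partner of BiP, stood at 32.0 against 25.2 (0.34), and Dnajc10 (ERdj5), a disulfide reductase, at 41.9 against 38.2 (0.13). The mitochondrial genes Dnajc15 and Dnajc11 stood at -1.03 and -0.78, and Dnajc8, a splicing-associated member, at -0.38. Dnajc12, a partner of aromatic amino acid hydroxylases, was low in both groups (0.485 against 1.51, -1.63), and Dnajc27, which carries a GTPase domain, stood at 1.57 against 3.16 (-1.01). Dnajc13, an endosomal protein, stood at 11.8 against 7.98 (0.57).

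Members were also grouped by compartment, in lists written after values were seen. The 14 genes of the endoplasmic reticulum had a median log2 fold change of 0.22, with Dnajb9 called higher and Dnajc14 lower. Over all genes the median was -0.13, and 7.01% were called higher and 8.67% lower. The 10 mitochondrial genes, 9 of them past the FPKM minimum, had a median of -0.67, with Hspa9 the 1 called. Of the 9, 4 lay above 0 (Hspa9, Hspd1, Hspe1 and Dnajc19) and 5 below, among them Dnajc15 and Dnajc30 at -1.03 and -0.86. Dnajc19 lay above 0 by its major isoform only, as its isoform sum gave -0.05. The summed FPKM of the 10 was 286 in the wound bed against 260.2.

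Of the 6 BAG genes, exchange factors with a shared BAG domain, 1 was called higher and 1 lower. The shares over all genes were 7.01% and 8.67%. Against the rise of Bag3, Bag5, a member with several BAG domains, fell from a group FPKM of 32.2 to 10.1 (-1.67, adjusted p = 0.000882, from the authors' deposited table). Bag1, an exchange factor that also binds the proteasome and the most abundant of the 6 genes by the sum of both groups, stood at 100.5 against 132 (-0.39) without a call. Bag2, an inhibitor of the ligase CHIP, stood at 2.62 against 1.73 and Bag4 at 2.43 against 4.02. Bag6, which guides tail-anchored membrane proteins, stood at 11.1 against 13.4 for its major isoform and at 13.8 against 9.67 for another, and its isoform sum gave 0.08 on the log2 scale.

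Members best known from the testis were detected in the nonwounded column, and all but Hspa2 stood lower in the wound bed by their major isoform. The 10 genes are Dnajb3, Dnajb7, Dnajb8, Dnajb13, Dnajc5b, Dnajc5g, Hspa1l, Hspa2, Hspa4l and Hspb9, listed after their values were seen, and 4 were called lower by the major isoform and 0 higher. They account for 4 of the 8 member genes called lower, where 8.67% of all genes were called lower and 7.01% higher. As the genes were picked with their values in view, these counts carry no test. Dnajb8 had 6.28 FPKM in nonwounded skin and was listed at 0 in the wound bed, Dnajc5g at 0 against 2.22, and Dnajb7 at 0 against 3.23 without a call. Hspa1l stood at 0.540 against 4.37 (-3.02, adjusted p = 0.0119, from the authors' deposited table).

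Dnajb3, a spermatid form, stood at 1.06 against 14.7, Hspb9 at 0.371 against 8.58 and Dnajb13, a sperm axoneme protein, at 0.0235 against 3.99, all without a call. For Dnajc5b the major isoform was listed at 0 against 3.35 and not called, and another isoform at 0 against 1.26 was called lower. Their adjusted p from the authors' deposited table was 0.0647 and 0.0246. Hspa2, needed for meiosis but also made in other tissues, stood at 4.08 against 3.84 for its major isoform and at -0.41 for its isoform sum. Exons of Hspa1l and Dnajb8 overlap antisense RNAs over 71.9% and 37.2% of their bases, and no strand setting is given in the sources used here.

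Transcripts of late male germ cells also had a lower sum in the wound bed column. Of 11 spermatid genes, also listed after values were seen, 8 were called lower and 0 higher, beside 8.67% and 7.01% of all genes. Their sum was 647 FPKM in nonwounded skin against 0.341. The counts follow in part from how the genes were picked and carry no test. Tnp1, a transition protein of sperm chromatin, was listed at 0 against 237, Prm2, a protamine, at 0 against 106, and Prm1 at 0.180 against 75.1. The table lists 730 of all tested isoforms at 0 for the wound bed and 23 at 0 for nonwounded skin, and 6 and 0 of the member isoforms. The part of germ cell RNA and of the unequal zeros in the lower calls was not tested.

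**Figure D5:**
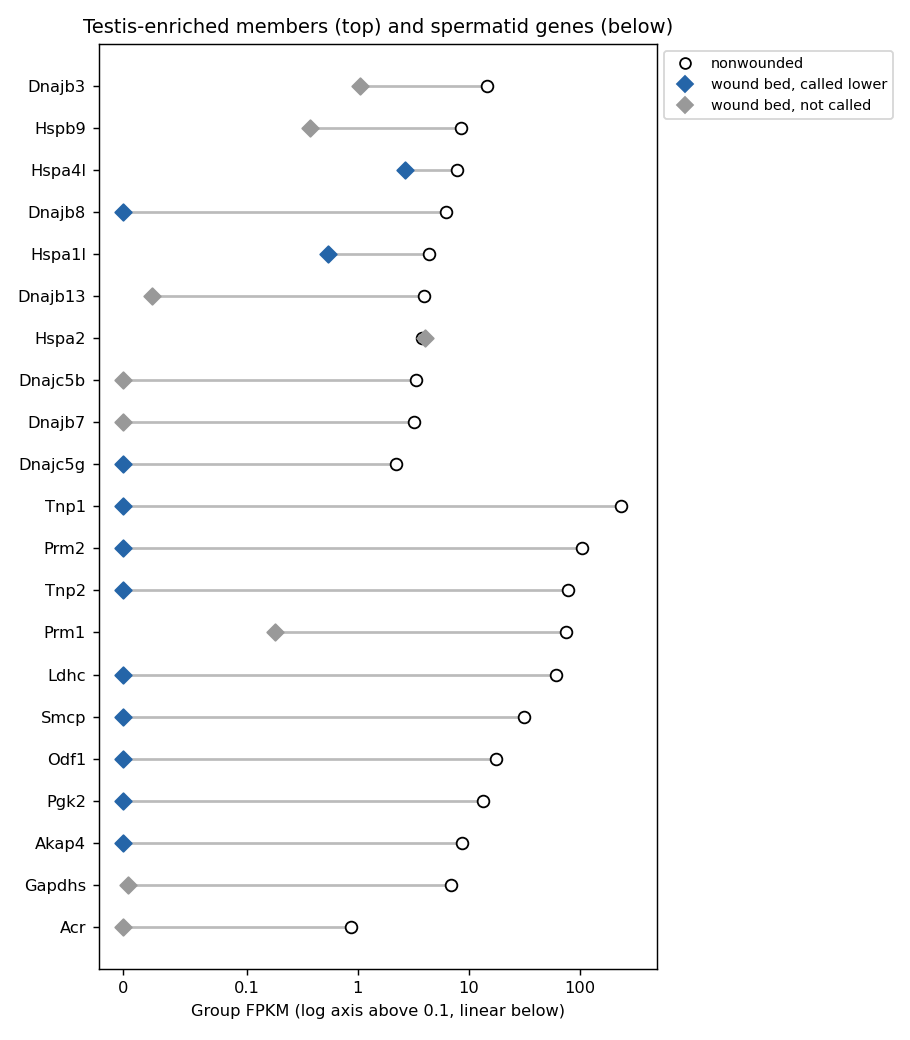
Group FPKM of the 10 testis-enriched members (upper rows) and 11 spermatid genes (lower rows) in nonwounded skin (open circles) and the wound bed (diamonds, blue if called lower, grey if not called), on an axis that is logarithmic above 0.1 and linear below. Tnp1 at 237 and Dnajb8 at 6.28 in nonwounded skin are both listed at 0 in the wound bed, while Hspa2 lies at about the same place in each.

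Several members have isoforms whose estimates traded places. Of 19 genes with more than 1 isoform and a major isoform above 0 in both groups, the isoform sum had the same sign as the major isoform in 14 and the opposite sign in 5. Dnajc19, a mitochondrial import gene, stood at 20.4 against 2.21 for NM_001286973 (3.21 on the log2 scale) and at 0.296 against 17.9 for NM_026332 (-5.91). Neither isoform was called, and the gene sum gave -0.05. For Dnaja1, NM_008298 stood at 3.46 against 14.0 (-2.02) without a call, while the called NM_001164672 went the other way. In Dnajb1 both isoforms pointed up, with NM_018808 at 30.6 against 10.1 (1.60) and not called.

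Other genes of protein folding, from a list of 50 that the naming rule does not take, had 0 of 47 tested genes called higher by the adjusted Cuffdiff p-values and 4 lower. At an unadjusted p under 0.05 there were 4 higher and 8 lower, and the median log2 fold change was -0.24. The lower counts lie near the shares over all genes given above, 8.67% by the adjusted and 18.3% by the unadjusted p-values. For higher calls the shares over all genes were 7.01% by the adjusted and 13% by the unadjusted p-values. The TRiC chaperonin, which folds actin and tubulin, had 8 subunit genes between -0.34 and 0.07, none of them called. Fkbp4 (-0.96) and Ttc1 (-1.21), genes of tetratricopeptide proteins that work with Hsp90 and Hsp70, fell, as did the mitochondrial disaggregase gene Clpb (-1.12) and the major isoform of Cryab. The adjusted p of the first 3 from the authors' deposited table was 0.00428, 0.0106 and 0.0427. Stip1 (Hop), which joins Hsp70 to Hsp90, stood at 0.62 and St13 (Hip) at 0.58 without a call, and Hyou1, the exchange factor of BiP, at 0.57. Serpinh1 (Hsp47), the collagen chaperone, stood at a group FPKM of 1781 against 1506 without a call.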

How the data were processed

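Per the labels' protocols, mRNA of sorted dermal adipocyte precursors was sequenced from Illumina TruSeq libraries. The submitters' processing notes name TopHat2 2.0.2, Cuffdiff 2.0.2 and the build mm9. The authors deposited 1 FPKM per isoform and group, pooled over the 6 nonwounded and 2 wound bed samples, and 1 p-value per isoform. There were 0 other columns of per-sample values, so depth is unknown and no count test, SD or interval could be made.

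Members were matched by gene symbol as deposited. Fold changes were computed from the FPKM without a pseudocount, and none is given against a value of 0. The deposited p-values were adjusted by the Benjamini-Hochberg method over all 17775 tested isoforms and called under 0.05, which gave the authors' yes or no for every isoform. The 15 isoforms that the authors marked as failed or as holding too many fragments were left out. Medians used major isoforms that reached 1 FPKM in either group. Because FPKM is relative, a few very abundant transcripts can shift all others, and isoforms or near copies can trade reads.

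The authors' loci equalled the GRCm38 RefSeq gene at both ends for 29 of 82 members and lay within 100 bases of a gene end for 72, so the coordinates are those of GRCm38 although the notes name mm9. Promoters came from RefSeq on GRCm38.p6, with 66 members matched, and exon overlaps from GENCODE vM21. Members and lists were chosen with earlier results of these data known. Named with values were called members, the most abundant ones, the inducible set, the Hsp90, Hsf and Bag genes, and the largest differences. The adjustment was tested on simulated data. Python 3.11.15, numpy 2.4.6 and pandas 2.3.3 were used.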

Additional observations from a re-analysis of the deposited data

How the results depend on the processing

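Of the 20 member isoforms called, 13 passed an adjusted p under 0.01. The 11 isoforms, and likewise the 11 genes, called higher became 7 where a rise of 1 or more on the log2 scale was also required. The lower calls became 5 for isoforms and 5 for genes at an adjusted p under 0.01. The other counts, including those with FPKM minimums of 1 and 5, adjustment over isoforms above 1 and values of 0 left out, stayed within 1.5 times. The median log2 fold change of the member genes, 0.00030, moved to -0.11 with a pseudocount of 1, -0.12 with a pseudocount of 0.1, -0.020 without the FPKM minimum, 0.065 with a minimum of 5, -0.073 for isoform sums and 0.14 when centred on all genes, so its sign is not settled. The 17 called genes with a fold change kept their direction under isoform sums, centring and a pseudocount of 1, while 5 uncalled genes changed sign under sums and 2 under centring. No paired analysis was possible because the table holds no value per sample, and leaving out replicates was not run for the same reason. Depth is unknown, so the precision of low values cannot be given.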
